A study of Homo sapiens and Mus musculus with 16 samples.

Results

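The response of known miRNAs to an extract of Antrodia cinnamomea fruiting bodies (AcFBE) was compared between a human liver cancer line, SK-HEP-1, and a mouse liver line, BNL CL.2, which served as the normal control. Members were the miRNAs whose names were the same in both tables of the SOLiD 5500xl sequencer once the species prefix was removed. This gave 136 of the 453 names found in either table, 39 of which are starred names, the older notation for the minor strand of a hairpin. The quantity compared was the log2 ratio of the treated over the untreated library of the same line and time.

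Each line was grown untreated (DMSO alone, U) or with AcFBE at 0.5 mg/ml (T), and small RNA was taken after 2 or 4 h, so the libraries are 2U, 2T, 4U and 4T. Each condition had 1 library per line, which left 2 pairs per line and 8 of the 16 libraries of the series. The pairs at 2 and 4 h stood in for replicates, and p-values measure only the spread between them. The species, the line and the sequencing run of each table cannot be told apart. The labels do not say whether pairs came from separate cultures, and one description of the design gives an older sequencer for BNL CL.2 than its titles do. An earlier SK-HEP-1 batch on the SOLiD 3 sequencer is set beside the result further on.

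Levels are RPM, reads per 1000000 quality reads of the library. Quality reads ranged from 14109705 to 21069453 in SK-HEP-1 and from 5933784 to 10561902 in BNL CL.2, and reads assigned to known miRNAs from 173239 to 683662 and from 670185 to 1118579. The matched names took 38.6 to 54.7% of those miRNA reads. No listed count lay between 0 and 2, so a value of 0 can stand for 1 read, and a true 0 allows up to 3 reads, or 0.142 to 0.506 RPM. The hepatocyte marker miR-122 was at 0.337 RPM or less in all 8 libraries, while the earlier SK-HEP-1 batch had it at 9.82, 0.910, 0.509 and 2.07 RPM in 2U, 2T, 4U and 4T. The endothelial miRNA miR-126 was listed at 57.4, 19.8, 0 and 22.4 RPM in 2U, 2T, 4U and 4T of SK-HEP-1, and the mouse table listed it as miR-126-3p at 0.225 to 9.09 RPM.

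A miRNA is cut from a hairpin transcript by Drosha and then Dicer, and the mature strand guides Argonaute to messenger RNAs that pair with its seed, bases 2 to 8. miRNAs that share a seed form a family and can act on the same targets. Several are transcribed together as clusters. The study counts the miR-17-92 and miR-106b-25 clusters, miR-21 and miR-191 as oncomirs, miRNAs that may act as oncogenes. By contrast, let-7 and miR-15/16 are known for restraining growth genes.

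The mature human sequences below belong to the miRNAs on which the comparison turned. They came from RefSeq (GRCh38.p14), which held all 23 arms looked up, and capitals mark the seed. Mouse sequences were not used here, so identity between the species was not checked. The first lines show members of seed groups whose summed log2 ratios were lower in SK-HEP-1.
miR-15b: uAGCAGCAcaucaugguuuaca
miR-16: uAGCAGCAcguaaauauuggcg
miR-17: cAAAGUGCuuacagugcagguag
miR-20a: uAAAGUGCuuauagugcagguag
miR-106b: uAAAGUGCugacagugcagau
miR-93: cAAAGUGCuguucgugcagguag
let-7a: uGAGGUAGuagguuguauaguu
let-7f: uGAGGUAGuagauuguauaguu
miR-98: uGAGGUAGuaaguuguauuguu
The next lines show the seed whose summed level after treatment was further below the untreated one in BNL CL.2, and miRNAs that are described singly. Seed groups were formed only among the 23 arms looked up, so a sum can lack other miRNAs with the same seed.
miR-25: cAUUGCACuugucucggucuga
miR-92a: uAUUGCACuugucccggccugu
miR-191: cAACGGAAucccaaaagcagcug
miR-21: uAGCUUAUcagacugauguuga
miR-185: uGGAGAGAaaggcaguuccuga
miR-125a-5p: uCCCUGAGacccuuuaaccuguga
miR-23a: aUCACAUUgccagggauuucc
miR-324-5p: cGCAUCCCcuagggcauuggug
miR-17 and miR-20a, and let-7a and let-7f, are nearly identical, so the mapping could have split their reads between names, and single values in those families are uncertain.

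In human cells, the miR-106b-25 cluster lies on chromosome 7 inside an intron of MCM7, minus strand, with miR-106b at chr7:100094043-100094063, miR-93 at chr7:100093815-100093837 and miR-25 at chr7:100093571-100093592. The miR-17-92 cluster lies on chromosome 13, plus strand, from miR-17 at chr13:91350618-91350640 to miR-92a at chr13:91351361-91351382, with further copies of miR-92a and miR-19b on the X chromosome. miR-15b and one of the 2 copies of miR-16 sit side by side on chromosome 3, plus strand, at chr3:160404607-160404628 and chr3:160404754-160404775. These positions are those of the mature strands in GRCh38.p14.

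The matched miRNAs stood well below their untreated level in SK-HEP-1 and near it in BNL CL.2. Over the 98 miRNAs with reads in all 8 libraries, the median log2 ratio was -1.20 at 2 h and -1.03 at 4 h in SK-HEP-1, that is a ratio of 0.436 and 0.489. The BNL CL.2 medians were -0.25 and 0.19, a ratio of 0.843 and 1.14. Both SK-HEP-1 medians lay below both BNL CL.2 medians. The lines differed by -1.09 in the mean of their medians, SK-HEP-1 minus BNL CL.2, with -0.95 at 2 h and -1.22 at 4 h. An exact two-sided permutation test of the line labels over the 4 pairs gave p = 0.333, the smallest that its 6 assignments allow, so this design could not pass 0.05.

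**Figure D1:**
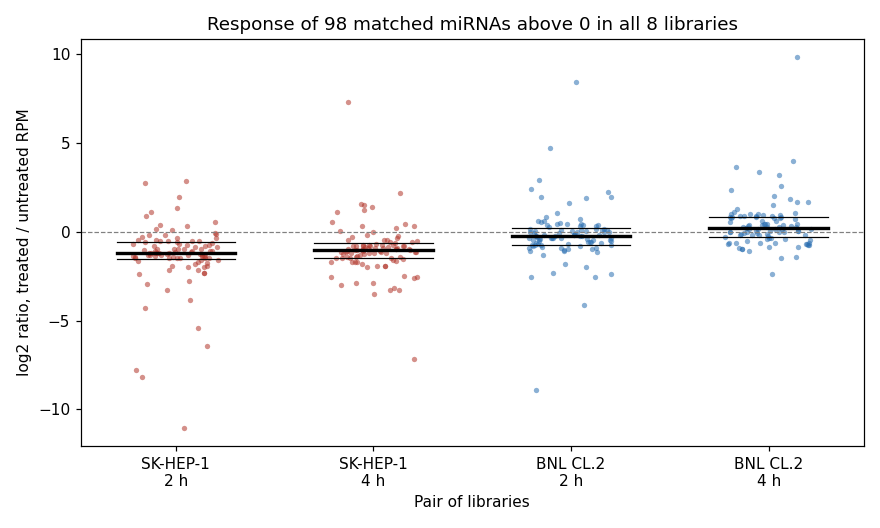
Log2 ratio of treated over untreated RPM (vertical axis) of the 98 matched miRNAs with reads in all 8 libraries, 1 point per miRNA, for each pair of libraries (horizontal axis). Thick lines are medians and thin lines quartiles: the medians are -1.20 and -1.03 in SK-HEP-1 and -0.25 and 0.19 in BNL CL.2, with a few points beyond 5 in either direction.

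The summed level of the 136 members gave the same picture. It was 12532 RPM in 2U and 5538 RPM in 2T of SK-HEP-1, a ratio of 0.442, and 14482 RPM in 4U and 6641 RPM in 4T, a ratio of 0.459. The BNL CL.2 sums were 49460 RPM in 2U and 41772 RPM in 2T, a ratio of 0.845, and 40751 RPM in 4U and 39516 RPM in 4T, a ratio of 0.97.

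Counted one by one, 40 of 64 miRNAs with at least 10 RPM in either library of the SK-HEP-1 2 h pair stood at or below 50% of the untreated level, or 62.5%. At 4 h it was 34 of 69, or 49.3%. For BNL CL.2 the counts were 9 of 87, or 10.3%, at 2 h and 7 of 89, or 7.87%, at 4 h. The miRNAs of a pair share 2 libraries and are not replicates, so these shares are a description. At 200% or more of the untreated level were 3 and 6 miRNAs in SK-HEP-1 and 11 and 17 in BNL CL.2, at 2 and 4 h. The miRNAs named in 1 table only had medians of -1.14 and -1.08 over 85 in SK-HEP-1 and of -0.54 and -0.01 over 77 in BNL CL.2. Those of BNL CL.2 lay below the -0.25 and 0.19 of the matched miRNAs.

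All of these values rest on the scaling. Reads assigned to miRNAs made up 3.24, 1.29, 2.65 and 1.23% of the quality reads in 2U, 2T, 4U and 4T of SK-HEP-1 and 11.3, 10.6, 10.3 and 9.61% in BNL CL.2. These miRNA reads are sums over the deposited tables, and they made up 89.5 to 100.1% of the reads that the library statistics list as mapped to miRBase in SK-HEP-1 but 61.2 to 69.3% in BNL CL.2. When counts were divided by the sums over the tables instead, the difference between the lines was 0.032, and with TMM factors, which centre the libraries on most miRNAs, it was -0.05. With the listed mapped reads, a denominator chosen after the data were seen, it was -0.10. It was -1.65 when reads left after the removal of tRNA were the denominator and -1.24 with reads of 16 to 30 bases. A lower amount of all miRNAs per quality read and more reads of other kinds in the treated SK-HEP-1 libraries cannot be told apart. Differences between single members, such as miR-25 against miR-106b, do not depend on the scaling.

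Both SK-HEP-1 log2 ratios were below 0 for 76 of 98 miRNAs, both above 0 for 2, and of unlike sign for 20. In BNL CL.2 the same counts were 27, 22 and 49. At 50% or less at both times stood 31 miRNAs in SK-HEP-1 and 2 in BNL CL.2, and for 21 of the 31 the BNL CL.2 levels stayed within 2-fold at both times. Both SK-HEP-1 log2 ratios lay below both BNL CL.2 log2 ratios for 57 of 98 miRNAs (58.2%), above them for 3 (3.06%), and overlapped them for 38. With miRNA reads as the denominator the counts were 11 below and 18 above, and with TMM factors or the listed mapped reads 16 and 16. The quality-read shares are the background against which the families are read.

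The separation did not depend on abundance in a simple way. With miRNAs classed by the lower of the mean levels in the 2 lines, both SK-HEP-1 log2 ratios were below both others for 13 of 21 miRNAs at 100 RPM or more, 18 of 33 from 10 to 100 RPM, 22 of 32 from 1 to 10 RPM and 4 of 12 under 1 RPM. The median differences of the responses were -0.77, -1.02, -1.21 and -0.46 in that order.

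The order of the miRNAs within a pair was little alike between pairs. Across the 98 miRNAs, Pearson's r was -0.10 (Spearman's rho 0.09) between the 2 SK-HEP-1 times and 0.08 (rho 0.15) between the 2 BNL CL.2 times. Between the lines, r of the mean responses was -0.02 (rho 0.05), and over the 4 pairings of a SK-HEP-1 with a BNL CL.2 pair it ranged from -0.19 to 0.31. These are descriptions across miRNAs, which share libraries and depth and are not independent. The median distance between the 2 h and 4 h log2 ratios of a miRNA was 0.58 in SK-HEP-1 and 0.87 in BNL CL.2.

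**Figure D2:**
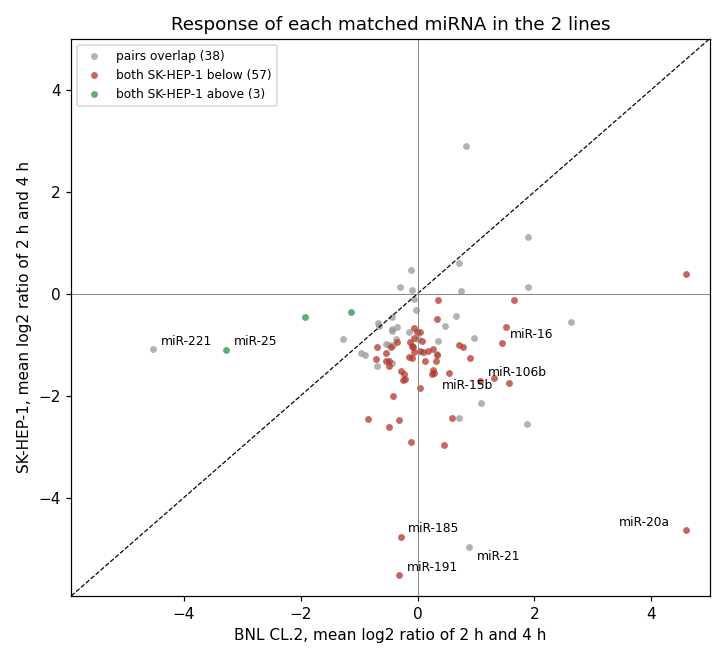
Mean log2 ratio of 2 and 4 h of each of 98 matched miRNAs in BNL CL.2 (horizontal axis) against SK-HEP-1 (vertical axis), with points on the dashed line equal in both. Red points (57) had both SK-HEP-1 ratios below both BNL CL.2 ratios, green points (3) above, grey points (38) overlapped, and 87 points lie below the dashed line with no trend along it (r = -0.02).

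In the edgeR quasi-likelihood fit of the 92 miRNAs that averaged 1 RPM or more in each line, no miRNA passed an adjusted p of 0.05 for the difference between the lines (0%), and the smallest adjusted p was 0.357. At an unadjusted p under 0.05 were 9 miRNAs (9.78%), all lower in SK-HEP-1. The fitted difference, SK-HEP-1 minus BNL CL.2, was negative for 82 of 92, with a median of -1.17 and a median SE of 0.74. The response within SK-HEP-1 gave 0 calls (0%; smallest adjusted p 0.173) and 25 miRNAs at an unadjusted p under 0.05 (27.2%), all lower. The response within BNL CL.2 gave 0 calls (0%; smallest adjusted p 0.818) and 3 miRNAs at an unadjusted p under 0.05 (3.26%). DESeq2 with the same quality reads also gave 0 calls for the difference, with 20 miRNAs at an unadjusted p under 0.05, and limma gave 0 with 9. Without the SK-HEP-1 4 h pair the fit called 8 miRNAs and without the 2 h pair 3, with 0 miRNAs in common, and in each case the lone pair was assumed to vary like the others.

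The 9 miRNAs at an unadjusted p under 0.05, singled out after their values were seen, were miR-15b, miR-17, miR-671-3p, miR-16, miR-106b, miR-26b*, miR-23a, miR-365 and miR-125a-5p. With miRNA reads as the denominator, the difference of miR-23a was 0.034, and the others kept a negative sign. Under that scaling 3 miRNAs were at an unadjusted p under 0.05 in the edgeR fit, 0 of them lower in SK-HEP-1. None of those with a negative sign thus kept such a p. With TMM factors or the listed mapped reads 2 miRNAs were, again with 0 lower.

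miR-15b was the most abundant matched miRNA of its family and gave the smallest unadjusted p of the fit. Its level was 1222, 401, 1232 and 429 RPM in 2U, 2T, 4U and 4T of SK-HEP-1, and 4572, 4532, 2941 and 4392 RPM in BNL CL.2. The treated SK-HEP-1 libraries thus held 32.8 and 34.8% of the untreated level, against 99.1 and 149% in BNL CL.2. The fitted difference was -1.85 (SE 0.34, adjusted p = 0.357, edgeR). miR-16, its partner on the same transcript, was scarce, at 3.70, 2.94, 28.4 and 9.43 RPM in SK-HEP-1 and 15.2, 58.0, 8.18 and 15.99 RPM in BNL CL.2. Its log2 ratios were -0.33 and -1.59 in SK-HEP-1 and 1.94 and 0.97 in BNL CL.2, with no overlap.

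miR-17, the founding member of the miR-17-92 cluster, went the same way. It was at 482, 134, 710 and 199 RPM in SK-HEP-1 and at 2870, 2083, 1526 and 2237 RPM in BNL CL.2. Treated SK-HEP-1 cells held 27.8 and 28.0% of the untreated level, and treated BNL CL.2 cells 72.6 and 147%. The difference was -1.89 (SE 0.50, adjusted p = 0.357, edgeR).

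miR-106b shares the seed of miR-17 but is made from the chromosome 7 cluster. Its levels were 11.2, 4.00, 16.2 and 4.25 RPM in SK-HEP-1 and 42.3, 45.5, 9.77 and 39.9 RPM in BNL CL.2, where 4U was the low library. Its log2 ratios were -1.48 and -1.93 against 0.11 and 2.03. miR-93, from the same transcript, had levels of 217, 22.2, 3.02 and 13.7 RPM in SK-HEP-1 and 8.43, 31.6, 6.81 and 68.9 RPM in BNL CL.2. Its SK-HEP-1 log2 ratios, -3.29 and 2.19, had opposite signs, and the groups overlapped.

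miR-25, the third member of that transcript, stood apart from its neighbours. It was at 293, 116, 186 and 103 RPM in SK-HEP-1 and at 908, 51.6, 835 and 157 RPM in BNL CL.2. Treated cells held 39.5 and 55.2% of the untreated level in SK-HEP-1 but 5.68 and 18.8% in BNL CL.2, so this miRNA was lower after treatment in all 4 pairs and lower by more in the mouse line. The difference was 2.17 (SE 0.85, adjusted p = 0.357, edgeR). DESeq2 with its own size factors called it (adjusted p = 0.0037), and it was the only miRNA called for the difference under that setting. Within BNL CL.2, miR-25 had the log2 ratios -4.14 and -2.41 while miR-106b had 0.11 and 2.03 and miR-93 had 1.91 and 3.34.

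**Figure D3:**
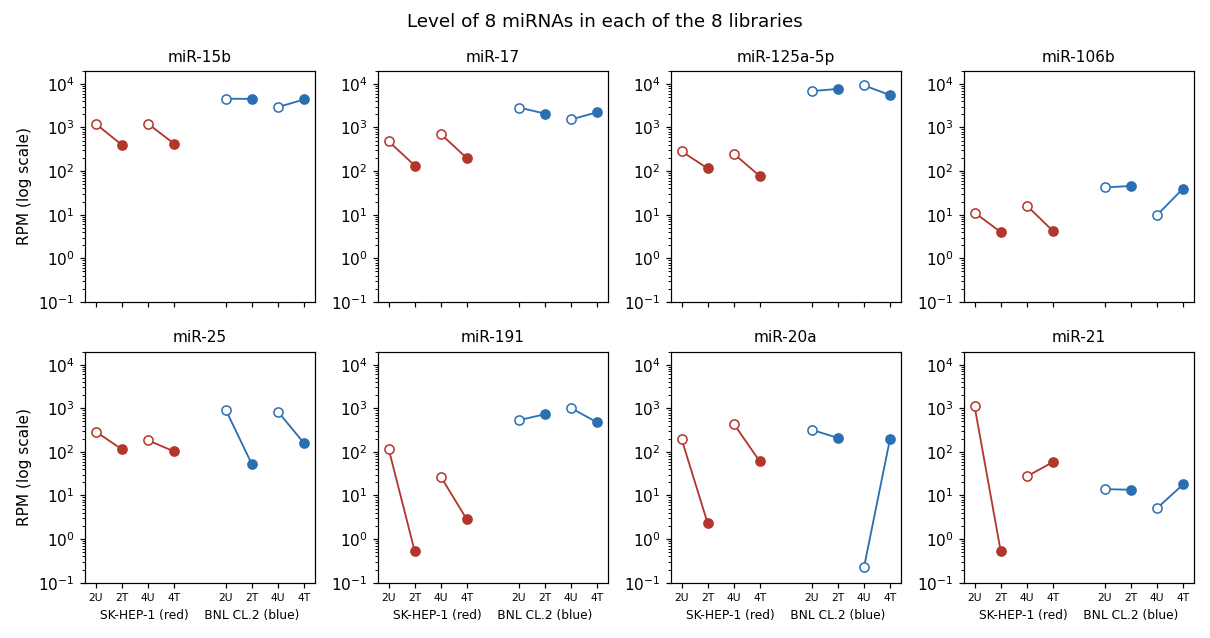
RPM (vertical axis, log scale) of 8 miRNAs in the 8 libraries, SK-HEP-1 in red and BNL CL.2 in blue, open points untreated and filled points treated, each line joining a pair at 2 or 4 h. In the red pairs miR-15b and miR-17 stand at 27.8 to 34.8% of the untreated level after treatment, miR-25 is lower after treatment in all 4 pairs and most in the blue ones (5.68 and 18.8%), and miR-20a and miR-21 have single libraries at 0.227 and 0.529 RPM.

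The other miR-17-92 members were less regular. miR-20a, which differs little from miR-17 in sequence, was at 196, 2.29, 442 and 60.3 RPM in SK-HEP-1 and at 320, 209, 0.227 and 202 RPM in BNL CL.2. The BNL CL.2 4U library held 2 reads of it against 1797 in 4T, a log2 ratio of 9.80 with an exact 95% interval of 7.94 to 12.8 from the reads alone. Its fitted difference of -8.77 (SE 5.46, adjusted p = 0.512, edgeR) was -4.01 without the BNL CL.2 4 h pair, which holds that library, and -14.4 without the 2 h pair. In SK-HEP-1 its log2 ratios were -6.41 and -2.87.

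miR-18a gave log2 ratios of 2.86 and -7.15 in SK-HEP-1, the second from 610 reads in 4U and 3 in 4T (interval -9.43 to -5.60), and -0.18 and 2.35 in BNL CL.2. miR-19b, among the 5 most abundant members in untreated SK-HEP-1, was at 541, 394, 1163 and 578 RPM there and at 685, 304, 182 and 224 RPM in BNL CL.2. The 2 h ratio was lower in the mouse line, at -1.17 against -0.46, and the pairs overlapped. miR-19a (0.10 and -0.73 against -0.76 and 0.69) and miR-92a (-0.54 and -0.79 against 0.30 and -0.99) overlapped as well.

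Over the miR-17-92, miR-106b-25 and related clusters, 9 of 10 matched members had reads in all 8 libraries. Both SK-HEP-1 ratios were below both BNL CL.2 ratios for 3 of the 9 (miR-17, miR-20a and miR-106b), above for 1 (miR-25) and overlapping for 5, against 58.2% below among all matched miRNAs. The median log2 ratios were -1.34 and -1.01 in SK-HEP-1 and -0.46 and 0.69 in BNL CL.2. Summing reads avoids the split between near-identical names: miR-17, miR-20a, miR-93 and miR-106b, which share the seed AAAGUGC, had summed log2 ratios of -2.48 and -2.08 in SK-HEP-1 and -0.45 and 0.72 in BNL CL.2. By contrast, miR-19a and miR-19b together gave -0.33 and -0.93 against -1.15 and 0.31, and miR-25 and miR-92a together -0.91 and -0.81 against -3.01 and -2.24. In BNL CL.2 the sum of miR-25 and miR-92a followed miR-25, which held 908 of its 963 RPM in 2U, and no test compared the seed groups.

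The difference of miR-21, a further oncomir, turned on a single library. It was at 1099, 0.529, 27.3 and 58.3 RPM in SK-HEP-1 and at 14.0, 13.5, 5.11 and 17.9 RPM in BNL CL.2. Its reads went from 23151 in 2U to 9 in 2T, whereas 4T was above 4U, so the log2 ratios were -11.02 and 1.09. In BNL CL.2 they were -0.05 and 1.81, and the fitted difference was -5.69 (SE 7.73, adjusted p = 0.637, edgeR). It was 0.22 without the SK-HEP-1 2 h pair and -11.87 without the 4 h pair, when it was called (adjusted p = 7.4e-05).

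miR-191, the remaining oncomir, was lower in both treated SK-HEP-1 libraries, at 118, 0.529, 27.1 and 2.83 RPM, and was at 535, 731, 1011 and 476 RPM in BNL CL.2. Its log2 ratios were -7.80 and -3.26 against 0.45 and -1.09. The difference of -5.13 (SE 2.05, adjusted p = 0.357, edgeR) was the largest, after that of miR-20a, among the miRNAs chosen for non-overlapping pairs and at least 10 RPM in each line. It was -2.93 without the SK-HEP-1 2 h pair and -7.45 without the 4 h pair. miR-185, a further one of them, was at 50.4, 0.176, 95.8 and 36.7 RPM in SK-HEP-1 and at 220, 151, 150 and 146 RPM in BNL CL.2, with 3 reads in the SK-HEP-1 2T library (log2 ratio -8.16, interval -10.4 to -6.61). Without the SK-HEP-1 4 h pair, miR-191 and miR-185 were among the 8 miRNAs called.

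Such swings were not rare. Of the 55 miRNAs with at least 10 RPM in each line, 5 were at least 16-fold lower in the SK-HEP-1 2 h pair, 1 was at least 16-fold higher in its 4 h pair, 2 were lower and 1 higher in the BNL CL.2 2 h pair, and 1 was higher in its 4 h pair. With these, and with a miRNA at 0 in 1 library, 9 miRNAs had a swing of this size.

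**Figure D4:**
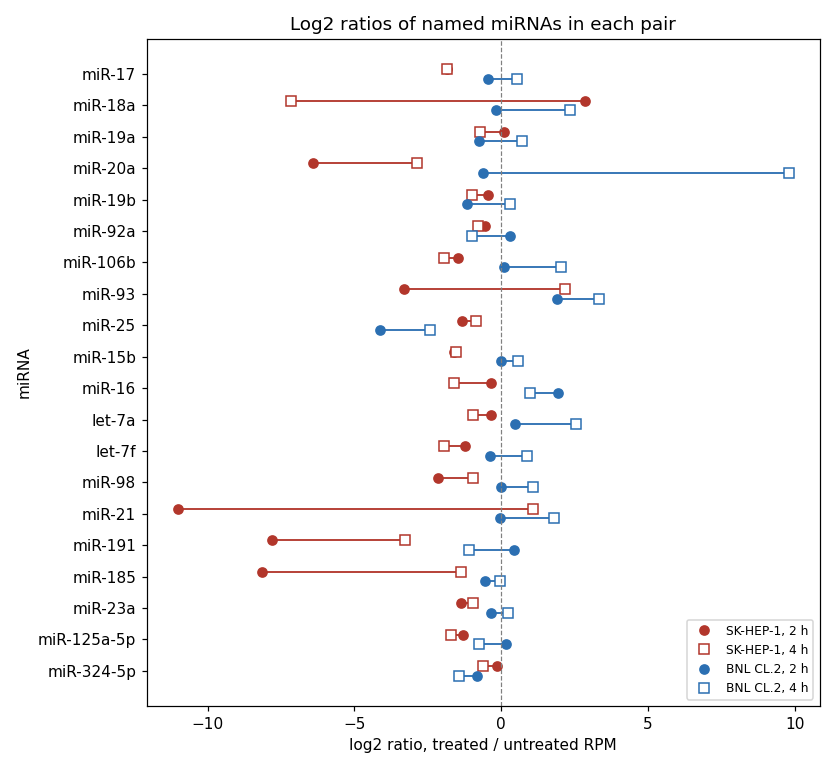
Log2 ratio of treated over untreated RPM (horizontal axis) of 20 miRNAs in each pair, with circles for 2 h and squares for 4 h joined by a line. Short red lines to the left of the blue ones mark miRNAs such as miR-15b and miR-17, and long lines mark miRNAs such as miR-21 (-11.02 to 1.09 in SK-HEP-1) whose pairs did not repeat.

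The let-7 family is known for holding back growth genes and for late appearance in development. With quality reads it had the highest share of members with separate pairs among lists with at least 5 matched members. Of its 8 matched members, 7 had reads in all 8 libraries. For 6 of the 7 both SK-HEP-1 ratios lay below both BNL CL.2 ratios, against 58.2% of all matched miRNAs. The median log2 ratios were -0.35 and -0.95 in SK-HEP-1 and 0.46 and 0.87 in BNL CL.2. All 4 of these medians lay above those of all matched miRNAs. The summed family was at 1422, 610, 2379 and 839 RPM in SK-HEP-1 and at 1493, 2988, 2090 and 4733 RPM in BNL CL.2, with both treated libraries lower in SK-HEP-1 (log2 ratios -1.22 and -1.50) and both higher in BNL CL.2, and a difference of the mean log2 ratios of -2.45. At 2 h the higher BNL CL.2 sum came mostly from let-7d, at 129 and 973 RPM in 2U and 2T, and let-7e, at 1.35 RPM (8 reads) and 462 RPM, while let-7f, let-7g and miR-98 had log2 ratios of -0.37, -0.89 and -0.02. The median difference between the lines, -1.83, was -0.71 with miRNA reads as the denominator and -0.79 with TMM factors. It was -2.39 after the tRNA filter, -1.98 with reads of 16 to 30 bases and -0.84 with the listed mapped reads, so the sign of this median held. The 2 times did not both keep it. With miRNA reads the family medians were 0.97 at 2 h and 0.16 at 4 h in SK-HEP-1, against 0.55 and 0.97 in BNL CL.2. With TMM factors they were 0.45 and 0.12 against 0.41 and 0.71, and with the listed mapped reads 0.93 and 0.15 against 0.57 and 1.15. Under these scalings SK-HEP-1 was higher at 2 h and lower at 4 h, so the family medians of the lines overlapped. The count of 6 of 7 was made with quality reads and did not hold with miRNA reads as the denominator.

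Among its members, let-7a was at 123, 96.7, 333 and 171 RPM in SK-HEP-1 and at 575, 789, 224 and 1314 RPM in BNL CL.2. let-7f, one of the most abundant members in untreated SK-HEP-1, was at 714, 307, 1239 and 322 RPM there and at 396, 306, 140 and 256 RPM in BNL CL.2. miR-98, a let-7 by its seed, was at 103, 23.2, 37.9 and 19.6 RPM in SK-HEP-1 and at 20.4, 20.2, 6.59 and 14.0 RPM in BNL CL.2. Their fitted differences were -2.16 (SE 0.96), -1.83 (SE 0.71) and -2.08 (SE 0.78), none past the threshold. let-7d, the member with the highest mean over the 8 libraries, overlapped, with log2 ratios of 2.73 and -0.49 against 2.91 and 0.85. let-7e, counted among the 6, was above the untreated level in all 4 pairs, with log2 ratios of 0.35 and 0.42 against 8.42 and 0.77.

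miR-125a-5p, miR-23a and miR-99b were abundant in the mouse line. miR-125a-5p, a relative of the worm lin-4 miRNA, was at 284, 115, 251 and 76.5 RPM in SK-HEP-1 and at 6846, 7665, 9238 and 5537 RPM in BNL CL.2, with log2 ratios of -1.30 and -1.71 against 0.16 and -0.74 and a difference of -1.22 (SE 0.42). miR-23a was at 144, 56.3, 113 and 58.5 RPM in SK-HEP-1 and at 5612, 4400, 3661 and 4251 RPM in BNL CL.2. Its difference was -1.09 (SE 0.37, adjusted p = 0.357, edgeR), near the median of all members. miR-99b, hosted beside miR-125a, was at 3.96 to 5.81 RPM in SK-HEP-1 and at 4194 to 5801 RPM in BNL CL.2, and its log2 ratios of -0.28 and 0.55 overlapped -0.47 and -0.12.

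The abundant miR-29 family, known for acting on collagen genes, overlapped between the lines in the 5500xl pairs. miR-29b, the most abundant member in SK-HEP-1, was at 1593, 982, 2752 and 1591 RPM there and at 403, 241, 114 and 156 RPM in BNL CL.2. miR-29a was at 451, 320, 1237 and 446 RPM and at 3202, 1709, 1606 and 1424 RPM. For all 3 members the pairs overlapped, since the BNL CL.2 2 h ratios (median -0.91) were as low as those of SK-HEP-1 (-0.70 and -1.16). In the SOLiD 3 batch the SK-HEP-1 ratios of all 3 lay below both BNL CL.2 ratios, at -1.73 and -1.28 for miR-29a against -0.91 and -0.17, at -2.09 and -2.00 for miR-29b against -0.74 and 0.45, and at -2.03 and -1.06 for miR-29c against -1.06 and 0.23. The median difference was -0.59, and it was 0.53 with miRNA reads as the denominator.

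The other lists are small. Both SK-HEP-1 ratios were below both others for 2 of 2 members of the miR-15/16 family, 3 of 4 of the miR-23/27/24 clusters, 2 of 3 of the miR-30 family, 1 of 1 of the miR-26, miR-103 and miR-107 and miR-10 families, 1 of 2 of the miR-99/100 and miR-125 family, and 0 of 3 of the miR-181, 0 of 2 of the miR-221 and miR-222 and 0 of 1 of the miR-34 family. With miRNA reads as the denominator the median difference stayed negative for miR-15/16 (-2.13 and then -1.01), miR-17-92 (-1.89 and -0.77), miR-30 (-1.44 and -0.32), miR-26 (-1.62 and -0.50) and miR-10 (-3.42 and -2.30). It turned positive for miR-23/27/24 (-0.82 and then 0.30), miR-99/100 and miR-125 (-0.39 and 0.73), miR-103 and miR-107 (-0.57 and 0.55), miR-181 (-0.12 and 1.0044), miR-221 and miR-222 (-0.50 and 0.62) and miR-34 (-0.68 and 0.44). Of the lists that stayed negative, miR-17-92 and miR-30 did not do so at both times. Their 2 h medians with miRNA reads were -0.01 and 0.03 in SK-HEP-1, above the -0.37 and -0.10 of BNL CL.2.

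miR-30b (-1.30 and -1.70 against -0.33 and 0.85), miR-26a (-1.21 and -1.43 against 0.69 and -0.07) and miR-107 (-1.47 and -1.08 against -0.56 and -0.85) were the leading members of their lists with separate pairs. miR-10a had log2 ratios of -5.44 and -0.50 against 0.32 and 0.57, but 2.06 RPM or less in every BNL CL.2 library and in SK-HEP-1 2T.

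miR-34a, a target of p53, was at 318, 115, 56.5 and 169 RPM in SK-HEP-1 and at 109, 224, 210 and 281 RPM in BNL CL.2, so its SK-HEP-1 ratios of -1.46 and 1.58 had opposite signs. miR-181a likewise gave 1.94 and -0.75 against 0.56 and 0.86. miR-221 was at 136, 344, 67.8 and 5.88 RPM in SK-HEP-1 and at 137, 0.284, 141 and 127 RPM in BNL CL.2, where 2T held 3 reads (log2 ratio -8.91, interval -11.2 to -7.36). miR-145, the only matched mesenchymal miRNA, was at 106, 55.3, 101 and 55.5 RPM in SK-HEP-1 and at 0.338 RPM or less in BNL CL.2, so its responses could not be compared. No miRNA of the list made without Drosha or Dicer was matched.

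**Figure D5:**
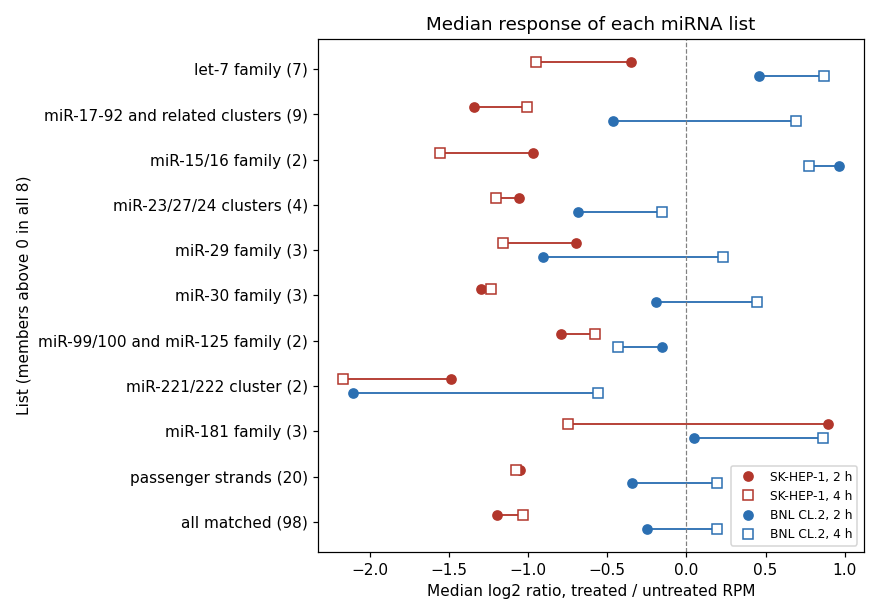
Median log2 ratio of treated over untreated RPM (horizontal axis) of each list with at least 2 members above 0 in all 8 libraries (number in brackets), for SK-HEP-1 (red) and BNL CL.2 (blue) at 2 h (circles) and 4 h (squares). The let-7 family lies to the right of all matched miRNAs in both lines, and the miR-29, miR-221 and miR-222 and miR-181 families overlap between the lines.

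The minor strands had nearly the same median difference as the other names. Both SK-HEP-1 ratios were below both others for 9 of 20 starred names with reads in all 8 libraries (45%). For the other names it was 48 of 78 (61.5%), beside 58.2% of all matched miRNAs. The median differences were -1.10 for starred and -1.05 for other names. let-7d*, the most abundant of them, was at 3.35 to 4.41 RPM in SK-HEP-1 and at 87.8, 113, 92.8 and 117 RPM in BNL CL.2. miR-26b* was at 4.03, 1.18, 5.74 and 0.638 RPM in SK-HEP-1 and at 37.7, 27.8, 33.8 and 29.6 RPM in BNL CL.2, a difference of -2.13 (SE 0.70).

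Besides miR-25, the members with both SK-HEP-1 ratios above both others were miR-324-5p and miR-99b*. miR-324-5p was at 19.4, 17.7, 17.3 and 11.4 RPM in SK-HEP-1 and at 42.1, 23.7, 13.9 and 5.07 RPM in BNL CL.2, with a difference of 0.77 (SE 0.54, adjusted p = 0.516, edgeR). In the SOLiD 3 batch it reversed, as given next. miR-99b*, under 1 RPM on average in SK-HEP-1, was not fitted, and is named here after its values were seen.

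The SOLiD 3 batch gave a second set of SK-HEP-1 pairs. Over the 85 matched miRNAs with reads in all 12 libraries, its median log2 ratios were -1.86 at 2 h and -1.40 at 4 h, against -1.17 and -1.01 in the 5500xl pairs and -0.25 and 0.22 in BNL CL.2. Both of its ratios lay below both BNL CL.2 ratios for 64 of the 85 (75.3%), compared with 47 (55.3%) for the 5500xl pairs, and all 4 SK-HEP-1 ratios did so for 39. The descriptions of the series differ on which of the sequencers read BNL CL.2, and both counts use the same BNL CL.2 pairs. The SOLiD 3 values are also scaled to quality reads. Reads assigned to miRNAs made up 12.4, 2.91, 6.94 and 2.54% of those in its 2U, 2T, 4U and 4T. The limit given above for the scaling thus holds for this batch too.

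For single miRNAs the batches were less alike, with r = 0.04 (rho 0.06) between their mean responses over those 85. miR-15b (-1.54 and -1.73), miR-17 (-2.51 and -1.79), miR-106b (-2.56 and -0.65), miR-23a (-1.05 and -1.28) and miR-125a-5p (-2.27 and -1.22) were again below both BNL CL.2 ratios. miR-191 (-5.04 and 0.77), miR-20a (-0.013 and -1.15) and miR-26a (-2.94 and 0.22) were not, and miR-21 gave -3.63 and -0.40. For let-7a, miR-98, miR-185 and miR-365 both ratios of this batch were also below both BNL CL.2 ratios. miR-16 was not listed in this batch. miR-671-3p and miR-26b* had libraries with 0 reads there, so their pairs could not be compared in full. miR-25 (-1.86 and -1.97) was again above both BNL CL.2 ratios, while miR-324-5p (-1.82 and -2.55) was below them. With this batch added to the fit on quality reads, the response within SK-HEP-1 was called for 36 of 91 miRNAs, miR-15b first (adjusted p = 0.0055, edgeR). The difference was called for none in that edgeR fit, with a smallest adjusted p of 0.0508.

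Name spelling hid some abundant miRNAs. After the data were seen, 16 further pairs of names that differ only in their suffix were added. miR-125b, listed as miR-125b-5p in mouse, was at 3264, 1510, 3513 and 1548 RPM in SK-HEP-1 and at 40397, 37240, 38947 and 44770 RPM in BNL CL.2, with log2 ratios of -1.11 and -1.18 against -0.12 and 0.20. miR-103a, listed as miR-103 in mouse, had -1.33 and -0.94 against -0.17 and -0.57. Of the 16, 11 had reads in all 8 libraries, and for 8 of the 11 both SK-HEP-1 ratios were below both others.

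Of 133 members seen in SK-HEP-1 2U, 12 were at 0 in 2T while 3 others appeared, and of 125 seen in 4U, 8 were at 0 in 4T while 11 appeared. In BNL CL.2, 6 were lost and 6 gained at 2 h, and 7 lost and 8 gained at 4 h. These counts were not tested, and depth differed between libraries.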

How the data were processed

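Small RNA of SK-HEP-1 and BNL CL.2 was sequenced on SOLiD instruments. Per the labels and the methods, the authors trimmed adapters with cutadapt, kept short reads, removed rRNA, repeat and tRNA reads, and mapped the rest to miRBase with Bowtie 0.12.7. The deposited values are whole-number read counts per known miRNA, not normalized, and a name can lack reads that a near-identical miRNA took. Counts were divided by the quality reads that the study lists for each library. The treatment responses and their difference were fitted in R 4.3.3 by the quasi-likelihood test of edgeR 4.0.16 (line-by-time pair as a block, 2 residual degrees of freedom, biological coefficient of variation 0.707, Benjamini-Hochberg adjustment) on miRNAs averaging 1 RPM or more in each line, after tests on simulated data. DESeq2 1.42.0, limma 3.58.1 on log2(RPM + 1), other denominators, other minimums, left-out pairs and the SOLiD 3 batch were alternatives. Summaries used Python 3.11.15, pandas 2.3.3, scipy 1.17.1 and matplotlib 3.10.9.

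The members and lists were chosen with earlier results of these data known. Named miRNAs were those with the largest differences in each direction (up to 6, at least 10 RPM in each line, pairs not overlapping), the 5 most abundant members of each untreated line, the miR-17-92 and miR-106b-25 clusters, miR-21, miR-191, and the leading member of each list. Of the lists, the rule allowed up to 3 members. Others are said to be named after their values were seen. The miRNAs let-7e, let-7g and miR-129-3p also lie outside these rules. Intervals and floors reflect read counting alone, as no molecular identifiers marked the PCR copies. The mRNA libraries were not used.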

Additional observations from a re-analysis of the deposited data

Results flagged for a closer look

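For 11 of the 98 miRNAs with reads in all 8 libraries, both SK-HEP-1 pairs were below the untreated level and both BNL CL.2 pairs above it, and for 0 the reverse held. That pattern is what marked them, the difference of each was not past the threshold in the fit where it was fitted, and the pattern itself was not tested. They were picked from their values. Over the 98, both SK-HEP-1 ratios were below 0 for 76 and both BNL CL.2 ratios above 0 for 22. Both SK-HEP-1 ratios were above 0 for 2 and both BNL CL.2 ratios below 0 for 27. Which ratios fall below 0 depends on the scaling. The difference of the mean log2 ratios, SK-HEP-1 minus BNL CL.2, was -2.77 for miR-106b, -2.41 for miR-16, -2.16 for let-7a, -1.71 for miR-365, -1.53 for miR-128, -1.31 for miR-92b, -1.23 for miR-152, -0.80 for miR-423-3p and -0.48 for let-7d*. It was -3.42 for miR-10a and -3.03 for miR-664, each under 1 RPM in 2 libraries.

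Some of the BNL CL.2 log2 ratios were close to 0, such as those of miR-152, miR-423-3p and miR-92b. miR-128 was at 58.3, 29.999, 93.5 and 34.1 RPM in 2U, 2T, 4U and 4T of SK-HEP-1 and at 38.8, 45.5, 36.2 and 48.5 RPM in BNL CL.2. miR-152, at 10.3, 4.59, 13.4 and 6.10 RPM against 13.7, 13.8, 11.5 and 12.7 RPM, was within 2-fold at both times in BNL CL.2, and miR-423-3p had log2 ratios of 0.06 and 0.03 there. miR-365 was at 27.4, 12.2, 47.2 and 26.5 RPM against 252, 345, 243 and 474 RPM. miR-92b had log2 ratios of -1.32 and -0.93 against 0.09 and 0.27. No group held 4 or more libraries, so a library far from its group could not be looked for.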

How the results depend on the processing

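The scaling decided the main result, as the miRNA share of quality reads changed in treated SK-HEP-1 and hardly in BNL CL.2. The difference of the medians (-1.09) was 0.032 with miRNA reads as the denominator and kept its sign under the other 12 alternatives (-1.65 to -0.05; -1.31 to -0.87 when a pair was left out). The share of SK-HEP-1 miRNAs at or below 50% was 14.1% at 2 h and 10.1% at 4 h with miRNA reads, 20.3 and 10.1% with TMM, 14.1 and 10.1% with the reads listed as mapped to miRBase, and 90.6 and 78.3% after the tRNA filter. Of the 98 miRNAs, both SK-HEP-1 ratios were below both others for 11 with miRNA reads, 16 with TMM and 16 with mapped reads, against 57 with quality reads. They were above for 18, 16 and 16 in that order and, after the tRNA filter, for 1. At a minimum of 10 RPM in each line they were below for 31 of 54, a share close to the 58.2% of all 98. With the SOLiD 3 batch in place of the 5500xl pairs, r between the lines was 0.31.

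The number called for the difference (0) was 1 with DESeq2's size factors, 1 with the SOLiD 3 batch in place, and 0 to 8 when a pair was left out. Within SK-HEP-1 (0) it was 1 with DESeq2's size factors, 8 with DESeq2 and quality reads, 36 with the SOLiD 3 batch added, 7 with it in place, and 0 to 8 without a pair. Within BNL CL.2 (0) it was 1 with DESeq2 under either scaling and 0 to 2 without a pair. The cause of these changes was not tested. 3 alternatives, added after the data were seen (names respelled, reads in all 8 libraries, and mapped reads as the denominator), gave 0 calls. The plan to keep only miRNAs with identical human and mouse sequences was not run.

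Of 727 values for 39 named miRNAs under the alternatives, 654 kept their sign and side of the threshold, 65 changed sign and 8 passed the threshold. The sign changed with miRNA reads for let-7d (0.35), let-7d* (0.64), miR-107 (0.55), miR-181a (1.0003), miR-19a (0.85), miR-19b (0.82), miR-23a (0.034), miR-29a (0.67), miR-29b (0.52), miR-34a (0.44), miR-423-3p (0.32) and miR-92a (0.80). With TMM it changed for let-7d (0.27), let-7d* (0.56), miR-107 (0.47), miR-181a (0.92), miR-19a (0.77), miR-19b (0.74), miR-29a (0.59), miR-29b (0.44), miR-34a (0.36), miR-423-3p (0.24) and miR-92a (0.72). With mapped reads it changed for let-7d (0.22), let-7d* (0.51), miR-107 (0.42), miR-181a (0.87), miR-19a (0.72), miR-19b (0.69), miR-29a (0.55), miR-29b (0.39), miR-34a (0.31), miR-423-3p (0.19) and miR-92a (0.68). With DESeq2's size factors it changed for let-7d (0.54), let-7d* (0.82), miR-107 (0.74), miR-125a-5p (0.086), miR-152 (0.073), miR-181a (1.19), miR-19a (1.04), miR-19b (1.01), miR-23a (0.22), miR-29a (0.86), miR-29b (0.71), miR-34a (0.63), miR-423-3p (0.51), miR-92a (0.99) and miR-92b (0.012). miR-324-5p was -0.13 with the SOLiD 3 batch added and -1.04 with it in place, and miR-99b was -0.13 after the tRNA filter. Leaving out a pair gave let-7d -2.37 to 0.85, miR-181a -1.46 to 1.23, miR-18a -8.14 to 1.76, miR-19a -1.01 to 0.45, miR-19b -1.03 to 0.44, miR-21 -11.87 to 0.22, miR-221 -0.93 to 7.79, miR-29a -0.93 to 0.043, miR-34a -2.20 to 0.84 and miR-92a -0.96 to 0.33. No paired analysis beyond the pair block was possible because the labels carry no replicate numbers.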

Other observations

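miR-129-3p, spelled miR-129-2-3p in mouse and so matched only by the added names, was at 33.9, 9.29, 19.4 and 7.73 RPM in 2U, 2T, 4U and 4T of SK-HEP-1 and at 1958, 1750, 1608 and 1846 RPM in BNL CL.2. Its log2 ratios were -1.87 and -1.33 in SK-HEP-1 and -0.16 and 0.20 in BNL CL.2, and the pairs did not overlap. Among the miRNAs named in 1 table only, the share at or below 50% of the untreated level was 76.7% of 30 at 2 h and 66.7% of 30 at 4 h in SK-HEP-1, while BNL CL.2 had 31.0% and 10.3% of 29, for names with at least 10 RPM in either library of the pair. The matched miRNAs had lower shares, 62.5 and 49.3% in SK-HEP-1 and 10.3 and 7.87% in BNL CL.2.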
